A study of Mus musculus with 2 samples.

Results

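Plasmacytoid dendritic cells (pDCs) were a rare population in shYT cholangiocarcinoma (CCA), with 105 of 31891 kept cells in 2 scRNA-Seq libraries of tumor-bearing mouse liver. Kept cells had between 500 and 5000 genes with a UMI, and no more than 10% of their UMIs (unique molecular identifiers, each marking 1 captured transcript) were mitochondrial. pDCs were then picked cell by cell as those with at least 2 UMIs of *Siglech*, UMIs of at least 3 of *Siglech*, *Ccr9*, *Klk1*, *Cox6a2*, *Tcf4* and *Runx2*, and no UMI of *Cd3e*, *Cd79a* or *Clec4f*, which mark T cells, B cells and Kupffer cells. The PBS library held 74 of these cells among 15531 kept cells, and the anti–PD-1 library held 31 among 16360. Because UMIs of these genes chose the cells, their levels, and those of every gene that follows them, are given as a description and support no finding.

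pDCs are the dendritic cells specialized in sensing viral and self nucleic acids through endosomal Toll-like receptors, above all TLR7 and TLR9. They depend on the transcription factor TCF4 (E2-2), build a secretory apparatus much like that of plasma cells, and are known as the strongest producers of type I interferon when triggered. In tumors they are often described as poor interferon producers, and they can reach the liver through the blood.

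CCA was induced by hydrodynamic tail vein injection of plasmids that express NICD, an active form of Notch, and myr-AKT, an active form of AKT. Both groups were shYT mice, in which shRNAs that target *Yap1* and the TAZ gene *Wwtr1* are transcribed from doxycycline-inducible alleles under rtTA3 driven by the ubiquitous CAG promoter, and doxycycline started on day 25. One group received PBS. The other received the anti-mouse PD-1 antibody of clone RMP1-14 on days 26, 29 and 32. Both were harvested on day 33. The driver is active in all tissues, so pDCs themselves carried the inducible alleles, and since both groups carried them, the effect of YAP/TAZ depletion was not compared. The labels give neither the shRNA line nor the age or sex of the mice. The study describes several animals in each treatment group of this experiment, but the files hold 1 library per group and do not separate animals within it.

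With 1 library per group, variation between animals could not be measured. No test was made, and every value describes these 2 libraries. All intervals are 95% intervals that cover counting error only. The pDCs of the PBS library held 393409 UMIs, with a lowest, median and highest cell of 1791, 4943.5 and 14866 UMIs. Those of the anti–PD-1 library held 184715 UMIs, with 1333, 5794 and 12260 UMIs per cell. When UMIs are summed over pDCs and scaled to a total of 1000000 (CPM), 1 UMI is worth 2.54 CPM in the PBS library and 5.41 CPM in the anti–PD-1 library. The libraries shared 219 cell barcodes, and 2 pDCs of each library carried one of them.

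The libraries differed in sex-linked transcripts. *Xist*, transcribed from the inactive X chromosome of females, had a UMI in 62 of the 74 PBS pDCs and in 0 of the 31 anti–PD-1 pDCs, a count that, at 3 counts of 31 cells, allows up to 9.68% of cells to have a UMI. Y-linked genes had a UMI in 9 PBS pDCs and 20 anti–PD-1 pDCs. Sex and treatment therefore cannot be told apart over all pDCs. In 4 PBS pDCs (16887 UMIs) and 20 anti–PD-1 pDCs (136796 UMIs) a Y-linked gene but not *Xist* was found. The median of a gene list in these Y-positive, *Xist*-negative cells is given beside the list where its sign differs. A gene without a UMI in the 4 PBS cells has a ratio set by the 5 CPM added to each level, as described below. Ratios of abundant genes are little affected by it but still rest on 4 PBS cells. Ratios and medians in this subset are given without intervals and, with 4 PBS cells, do not show a direction.

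*Siglech*, which encodes an inhibitory lectin of mouse pDCs (mm10 chromosome 7, 55768178 to 55778925, plus strand), had 1261 UMIs in the PBS library, or 3205 CPM (3031 to 3387), with a lowest, median and highest cell of 2, 16.5 and 39 UMIs. In the anti–PD-1 library it had 396 UMIs, or 2144 CPM (1938 to 2366), with 2, 11.0 and 35 UMIs per cell. All cells of both libraries had it because the gate requires it, and their ranges overlapped over nearly the whole span.

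The other gate genes were found in most cells. *Tcf4* had a UMI in 72 of 74 PBS and 30 of 31 anti–PD-1 pDCs, at 1207 and 1229 CPM. *Ccr9*, a homing receptor for the gut chemokine CCL25, had a UMI in 67 and 27 cells, at 920.2 and 1061 CPM. *Runx2*, a transcription factor of late pDC development, had one in 63 and 24 cells. *Cox6a2*, a subunit of cytochrome c oxidase, had one in 56 and 26 cells. *Klk1*, a tissue kallikrein, was the most uneven, with 54 and 17 cells. Its level over all other kept cells was 2.06 CPM in the PBS and 53.4 CPM in the anti–PD-1 library, against 2.38 and 5.16 CPM for *Cox6a2* and 5.25 and 7.83 CPM for *Siglech*. In neutrophils, which should lack it, *Klk1* had a UMI in 0.150% of 1330 cells (median 1669 UMIs) and 1.34% of 2465 cells (median 2143 UMIs), against 73.0% and 54.8% of pDCs (median 4943.5 and 5794 UMIs). When each cell was thinned to 1000 UMIs the *Klk1* shares were 0.0826% and 0.426% in neutrophils and 50% and 48.4% in pDCs. The listed pancreatic acinar genes also differed over all other kept cells, at 4.64 CPM in the PBS and 1031 CPM in the anti–PD-1 library. They had 0 and 4 UMIs in pDCs, and a link to *Klk1* was not tested.

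At the edges of the gate, 4 PBS and 2 anti–PD-1 pDCs had exactly 2 *Siglech* UMIs, whereas 3 and 7 cells outside it met every other condition with a single *Siglech* UMI. Exactly 3 of the 6 genes were found in 6 and 1 pDCs, and 9 and 3 cells were left out with 2 of them. By contrast, 57 PBS and 16 anti–PD-1 pDCs had at least 10 *Siglech* UMIs.

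Genes known from pDCs that were not part of the gate were found as well, though not at a high level in every cell. Their summed level had a lowest, median and highest cell of 12.6, 267 and 559 UMIs per 10000 in the PBS pDCs and of 173, 303 and 390 in the anti–PD-1 pDCs. Of the 74 PBS pDCs 6 lay below 100 UMIs per 10000, and none of the 31 anti–PD-1 pDCs did. Leaving out these 6 cells was tried after seeing the data, and the value without them is given where it turns a direction or ends a 2-fold difference of a gene described, and for some others. All 28 genes that were listed had enough UMIs to be measured, which required a mean of 20 CPM over the libraries and 20 UMIs in both together. The most abundant were *Ly6c2*, *Bst2* and *Ly6d*, all surface proteins used to sort mouse pDCs, and *Irf8*, a transcription factor of dendritic cell development. *Bst2* stood at 2855 CPM in the PBS and 3162 CPM in the anti–PD-1 pDCs, against 196 and 289 CPM in conventional type 1 dendritic cells (cDC1). Of the 20 genes highest in pDCs relative to all other kept cells, 5 were gate genes, namely *Siglech*, *Cox6a2*, *Ccr9*, *Klk1* and *Runx2*. The others included *Cyb561a3* (821 and 931 CPM), *Rnase6* (1210 and 915 CPM), which encodes a ribonuclease of lysosomes, *Smim5* (381 and 271 CPM), *Lrp8* (257 and 238 CPM), *Upb1* (305 and 162 CPM) and *Cd300c* (208 and 217 CPM).

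**Figure D1:**
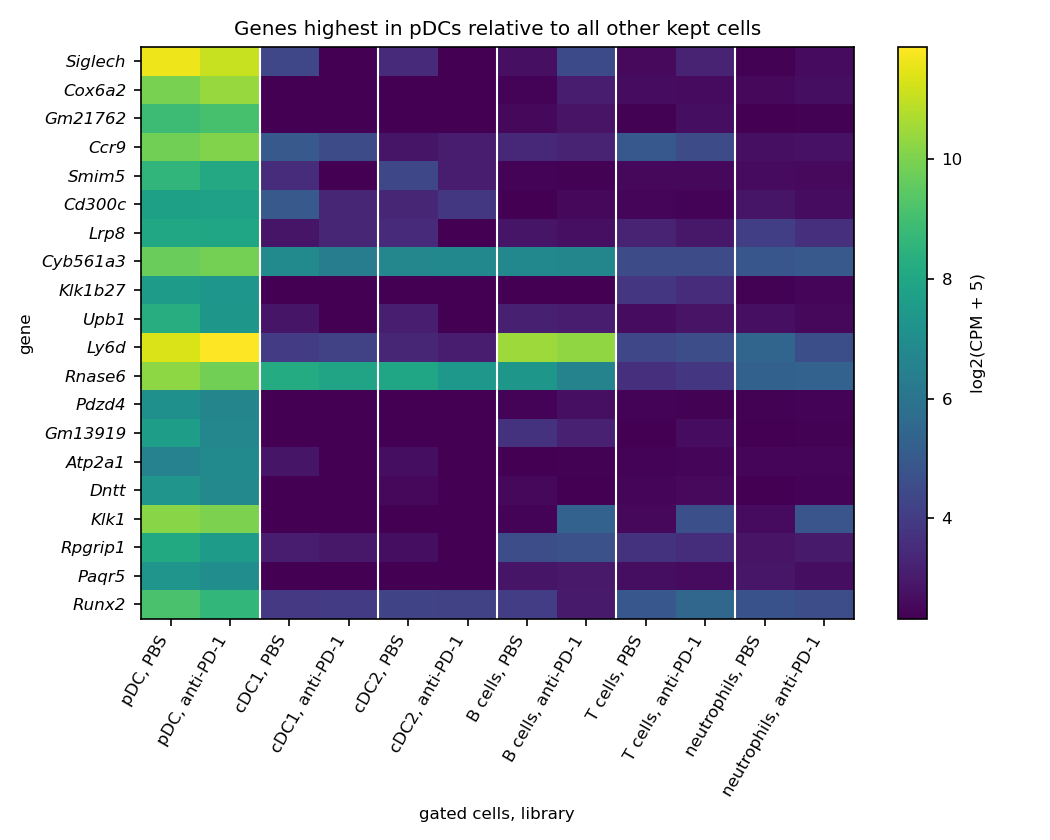
Level of the 20 genes that were highest in pDCs relative to all other kept cells, as log2(CPM + 5) over the summed UMIs of each gated cell type (columns, PBS beside anti–PD-1) for each gene (rows). *Ly6d* is shared with B cells (1434 and 1234 CPM) and *Cyb561a3* and *Rnase6* with both kinds of conventional dendritic cells, whereas *Cox6a2* and *Gm21762* were at 0 CPM in the conventional dendritic cells of both libraries.

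The pDCs also carried transcripts of lymphoid development. *Dntt*, which encodes the polymerase that adds untemplated bases to antigen receptor genes, stood at 155 CPM in PBS and 108 CPM in anti–PD-1 pDCs, and at 0.785 and 0 CPM in B cells. *Iglc3*, an immunoglobulin light chain constant gene, had 439 and 205 UMIs and was found in 65 of 74 and 28 of 31 pDCs, at 1116 and 1110 CPM. In neutrophils *Iglc3* was at 3.29 and 13.5 CPM. *Ighm*, the constant gene of IgM, had a UMI in 73 of 74 and 29 of 31 pDCs. After thinning to 1000 UMIs an *Ighm* UMI was found in 67.6% and 71.0% of pDCs and in 14.8% and 16.7% of neutrophils. Unthinned, the order of the 2 libraries in *Ighm* was the other way, at 98.6% and 93.5% of pDCs against 26.6% and 35.0% of neutrophils. The levels of both immunoglobulin genes were close in the 2 libraries, with log2 ratios of −0.01 (−0.25 to 0.23) for *Iglc3* and −0.03 (−0.26 to 0.19) for *Ighm*. *Igkc* was different, with 227 UMIs in 53 PBS pDCs and 312 UMIs in 30 anti–PD-1 pDCs, a log2 ratio of 1.54 (1.29 to 1.79). It was also higher in anti–PD-1 neutrophils (1.11, 1.02 to 1.2), so this light chain transcript differed in the same direction in a cell type that should not make it.

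Some genes that are usually read as markers of other cells were found in many pDCs. *Clec9a*, a receptor of cDC1 for dead cells, had 51 UMIs in 31 PBS pDCs and 41 UMIs in 14 anti–PD-1 pDCs, while *Xcr1*, the defining chemokine receptor of cDC1, had 1 and 0 UMIs. No level in a cell type that should lack it is given for *Clec9a*, so its counts show detection only. *Cdh5*, the cadherin of endothelial junctions, had 83 UMIs in 44 and 29 UMIs in 15 pDCs, at 211 and 157 CPM. In neutrophils *Cdh5* was at 19.7 and 16.5 CPM, while of the other endothelial markers *Pecam1* had 38 and 23 UMIs, *Kdr* 18 and 16, and *Stab2* and *Egfl7* at most 3 UMIs in the pDCs of either library.

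The question behind the comparison of the libraries was how the tumor microenvironment differs when PD-1 blockade is added to YAP/TAZ depletion. The pDC share of kept cells was 0.476% (0.374% to 0.598%) in the PBS library and 0.189% (0.129% to 0.269%) in the anti–PD-1 library, which differ by −0.287 percentage points (−0.423 to −0.158). Among cells with a *Ptprc* UMI (CD45, the common leukocyte antigen) the shares were 0.611% and 0.219%. The conventional dendritic cells were lower as well, with cDC1 at 0.753% and 0.214% and cDC2 at 1.15% and 0.238% of kept cells. As a share of all gated dendritic cells, pDCs were therefore 20.6% (16.5% to 25.1%) in the PBS and 30.7% (21.9% to 40.7%) in the anti–PD-1 library. The direction thus depends on the denominator. The conventional dendritic cells were gated with the same exclusion genes, and their shares without those genes were not taken.

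The size of the difference in the share of kept cells depended on the cells compared and on the exclusion genes. Among Y-positive, *Xist*-negative cells, pDCs were 4 of 1481 PBS cells (0.270%) and 20 of 7861 anti–PD-1 cells (0.254%), a difference of −0.016 points with an interval from −0.447 to 0.225, so a lower share was not detectable in them. Before the exclusion genes were applied, the gate held 91 and 62 cells, or 0.586% and 0.379%, a difference of −0.207 points (−0.367 to −0.051). The exclusion removed 17 of 91 PBS cells and 31 of 62 anti–PD-1 cells. Of those 31 cells, 24 had a *Clec4f* UMI, and 16 were removed by a single *Clec4f* UMI alone. In the removed anti–PD-1 cells, 28 pDC genes that the gate did not use had a median log2 ratio of −0.18 over the pDCs kept, with 1 gene at least 2-fold lower and 1 at least 2-fold higher. In the removed PBS cells the median log2 ratio was −0.59, with 6 genes at least 2-fold lower. In *Clec4f* the removed PBS cells stood at 1095 CPM and the removed anti–PD-1 cells at 115 CPM.

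**Figure D2:**
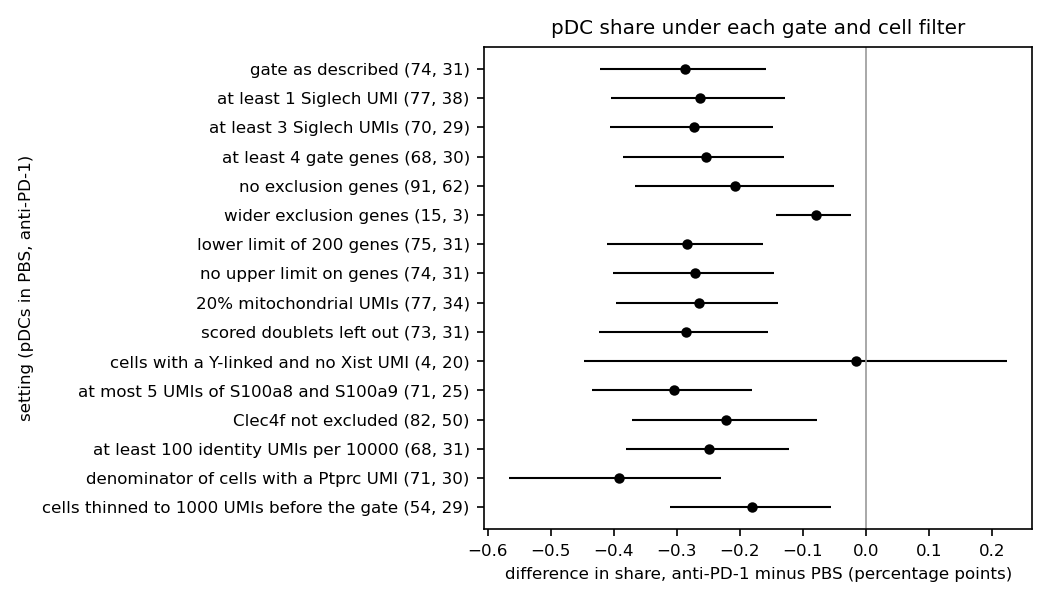
Difference in the pDC share of kept cells, anti–PD-1 minus PBS in percentage points (x axis), under each gate and cell filter and among cells with a *Ptprc* UMI (y axis, with the number of pDCs in each library). Points are the differences and lines their 95% counting intervals, and the interval that reaches past 0 is that of Y-positive, *Xist*-negative cells (−0.447 to 0.225).

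Gene levels were compared as log2 ratios, anti–PD-1 to PBS, with 5 CPM added to each level. Of 4893 measured genes, 217 (4.43%) were at least 2-fold higher and 457 (9.34%) at least 2-fold lower in the anti–PD-1 pDCs, and the median over all measured genes was −0.10. Many of them rest on few UMIs, and the interval lay beyond 0 for 204 of the 217 higher and 315 of the 457 lower genes. Intervals beyond 0 at a smaller fold were not counted over all measured genes. Counts of intervals at any fold in a list therefore have no background here. With scaling by the median ratio of abundant genes, 166 genes were at least 2-fold higher and 624 lower. The count of lower genes was 253 with no exclusion genes, 256 with 20 CPM added, 799 after estimated free RNA was subtracted and 783 without each gene's highest cell. Leaving out the highest cell, with library totals unchanged, takes a larger part from 31 anti–PD-1 than from 74 PBS cells. It therefore tends to lower the ratios by construction. The shares of 4.43% and 9.34%, which move with these choices, are the background for the counts of each group that follows. The same ratios were taken in the other gated cells, so that a pDC value can be read beside them. Whether a ratio in pDCs differs from that in another cell type was not tested.

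Few members of the pDC program were past 2-fold. Of the 28 pDC genes beyond the gate, 0 were at least 2-fold higher and 2 (7.14%) at least 2-fold lower. Over all measured genes these shares were 4.43% and 9.34%. The median log2 ratio of the 28 genes was −0.02. The interval, at any fold, lay above 0 for 6 of them and below 0 for 9, counts without a background over all measured genes. Their summed level was higher (0.21, 0.17 to 0.26). The median was 0.25 in the Y-positive, *Xist*-negative pDCs and 0.17 after estimated free RNA was subtracted. The lower pair were *Cd209d*, a C-type lectin, with 81 UMIs in 27 PBS pDCs and 11 UMIs in 6 anti–PD-1 pDCs (−1.71, −2.65 to −0.85), and *Grm8*, a glutamate receptor gene, with 53 UMIs in 30 and 6 UMIs in 5 pDCs (−1.90, −3.11 to −0.81). In the Y-positive, *Xist*-negative pDCs, with 4 PBS cells, *Grm8* was at 3.29, which does not show a direction.

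*Ly6c2* showed the clearest shift among the abundant pDC genes. PBS pDCs had 1278 UMIs in 71 of 74 cells, at 3249 CPM (3073 to 3432), and a lowest, median and highest cell of 0, 25.6 and 175 UMIs per 10000. Anti–PD-1 pDCs had 1178 UMIs in all 31 cells, at 6377 CPM (6018 to 6752), and 14.8, 56.8 and 140 UMIs per 10000. The cells overlapped, with a higher median in the anti–PD-1 library, and the log2 ratio was 0.97 (0.86 to 1.09). In cDC1 it was 1.50 and in neutrophils 1.44. In the Y-positive, *Xist*-negative pDCs, with 4 PBS cells, the *Ly6c2* ratio was −0.17, so the higher level was not seen in that subset.

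*Ly6d* was also higher, with 2580 and 3757 CPM (0.54, 0.40 to 0.68). *Irf8* was lower, at 2600 and 1954 CPM (−0.41, −0.59 to −0.24), and so was *Bcl11a*, a transcription factor needed for pDC development, at 376 and 217 CPM (−0.78, −1.31 to −0.29). *Spib*, an ETS factor that acts with it, was at 289.8 and 363 CPM with an interval that spans 0. Of 12 pDC transcription factors, *Irf7* alone was past 2-fold, and their median was −0.03, or 0.11 after estimated free RNA was subtracted.

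Of the nucleic acid sensing genes, 16 were measured, 2 (12.5%) at least 2-fold higher and 2 at least 2-fold lower, with a median log2 ratio of −0.18, or 1.08 in the Y-positive, *Xist*-negative pDCs. *Tlr7*, the receptor for single-stranded RNA, had 75 UMIs in 33 PBS pDCs and 33 UMIs in 15 anti–PD-1 pDCs (−0.09, −0.70 to 0.49). *Tlr9*, the receptor for unmethylated DNA, was near the limit of depth with 16 and 4 UMIs. *Unc93b1*, which escorts both receptors to endosomes, was at 844 and 660.5 CPM (−0.35, −0.66 to −0.05). Neither receptor differed beyond counting error. The members past 2-fold had few UMIs, apart from *Irf7*, whose values are given with the interferon-stimulated genes. They were *Irak1*, a kinase below MyD88 (42 and 8 UMIs, −1.21, −2.32 to −0.20), *Cnpy3*, a chaperone of Toll-like receptors (33 and 6 UMIs, −1.25, −2.48 to −0.11, but 3.29 in the Y-positive, *Xist*-negative pDCs), *Plscr1* (7 and 16 UMIs, 2.01, 0.86 to 3.13) and *Irf7*.

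Interferon genes themselves were not found. The 20 listed genes of type I and type III interferons, including *Ifnb1* and the *Ifna* family, had 0 UMIs in all 105 pDCs, a count that, at 3 counts of 105 cells, allows up to 2.86% of pDCs to have such a UMI, and a summed level of up to 7.63 CPM in the PBS and 16.2 CPM in the anti–PD-1 library. Reads shared by the near-identical *Ifna* genes may have been dropped in counting, and a cell can express a gene without yielding a UMI, so the limit holds for UMIs as counted.

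Type I interferon-stimulated genes leaned upward. Of 27 listed genes in the files 15 were measured, 4 of them (26.7%) at least 2-fold higher and 1 (6.67%) at least 2-fold lower, and the median log2 ratio was 0.55. With more exclusion genes, which left 3 anti–PD-1 pDCs, the median was −0.84 and *Isg15* was at −2.11. Values under this alternative, here and in the lists that follow, rest on too few UMIs to show a direction. *Irf7*, which sustains interferon transcription, had 60 UMIs in 38 PBS pDCs and 68 UMIs in 19 anti–PD-1 pDCs, at 152 and 368 CPM (1.24, 0.74 to 1.75). *Isg15*, a ubiquitin-like modifier, had 27 UMIs in 6 and 48 UMIs in 9 pDCs (1.85, 1.18 to 2.53). *Isg15* was thus found in a minority of cells in both libraries, with 48.1% of the PBS UMIs in 1 cell. *Ifitm3*, which blocks viral entry, had 46 UMIs in 21 and 57 UMIs in 16 pDCs (1.36, 0.80 to 1.93), and was at 0.07 after estimated free RNA was subtracted. *Oasl1* had 6 and 14 UMIs (2.00, 0.78 to 3.17). *Ifi27l2a* lay just under 2-fold, at 407 and 817 CPM. *Usp18*, a brake on interferon signaling, was lower, with 21 and 3 UMIs (−1.46, −2.92 to −0.02, but 1.30 in the Y-positive, *Xist*-negative pDCs).

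The abundant members *Bst2* and *Ly6e* were nearly level, at 0.15 (0.00 to 0.29) and 0.18 (0.05 to 0.32). After thinning to 1000 UMIs, at least 3 of the listed genes were found in 52 of 74 PBS pDCs (70.3%, 58.5% to 80.3%) and 28 of 31 anti–PD-1 pDCs (90.3%, 74.2% to 98.0%), with overlapping intervals. Unthinned, the counts were 71 of 74 (95.9%, 88.6% to 99.2%) and 31 of 31 (100%, 88.8% to 100%). These shares were not taken in neutrophils. *Irf7* had a UMI in 9.46% and 22.6% of thinned pDCs and in 6.03% and 20.5% of thinned neutrophils, and unthinned in 51.4% and 61.3% of pDCs and 12.1% and 39.8% of neutrophils. The median of this list was 1.12 in cDC1, 0.87 in cDC2, 0.73 in B cells and 1.38 in neutrophils, so the upward lean was found in every gated cell type.

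**Figure D3:**
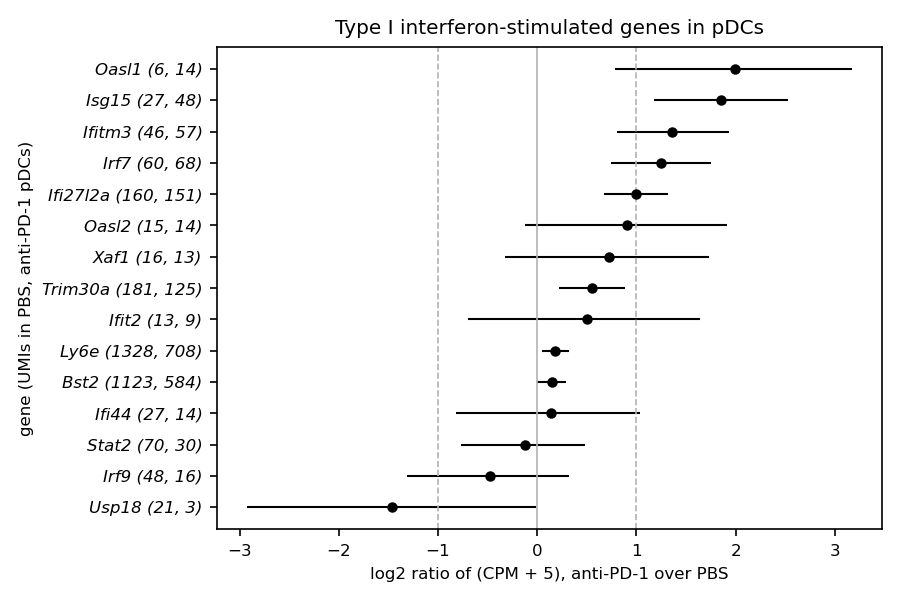
Log2 ratio of (CPM + 5), anti–PD-1 over PBS (x axis), for the 15 measured type I interferon-stimulated genes in pDCs (y axis, with UMIs in each library). Points are ratios, lines are 95% counting intervals and dashed lines mark 2-fold, and 4 genes lie above 2-fold and *Usp18* alone below it.

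Promoters of these genes are known for the interferon-stimulated response element, whose core was searched as GAAA, any 2 bases and GAAA on both strands from 250 bases before to 50 bases after the first start site listed for each gene (RefSeq sequences of GRCm38.p6). It was found in 5 of the 12 measured genes with a listed promoter (41.7%) and in 943 of 27025 promoters of all genes (3.49%). The matches that lie upstream of a start site are shown with the matched bases in capitals, since they set a member with a large ratio (*Isg15*) beside members with small ones. *Isg15* holds 3 overlapping matches on chromosome 4, 156200871 to 156200900, minus strand, and *Bst2* 2 overlapping matches on chromosome 8, 71537580 to 71537609, minus strand. *Trim30a* holds 1 match on chromosome 7, 104465210 to 104465239, minus strand, and *Stat2* 1 match on chromosome 10, 128270266 to 128270295, plus strand.
Isg15: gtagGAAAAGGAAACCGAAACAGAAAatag
Bst2: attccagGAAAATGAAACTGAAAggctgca
Trim30a: agttctttagTTTCTTTTTCtcagttcctg
Stat2: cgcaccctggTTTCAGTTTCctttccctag

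Those genes had log2 ratios of 1.85 for *Isg15*, 0.15 for *Bst2*, 0.55 for *Trim30a* and −0.13 for *Stat2*. The fifth measured gene with a match was *Ifitm3* (1.36), whose matches begin after its listed start and are not shown. *Irf7* (1.24) and *Oasl1* (2.00) had no match in this window.

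Of the interferon-γ response genes 11 were measured, 1 (9.09%) at least 2-fold higher and 1 at least 2-fold lower, with a median log2 ratio of 0.40. The median was 0.16 after estimated free RNA was subtracted. It was 0.14 without each gene's highest cell, a choice that tends to lower ratios by construction. With more exclusion genes, which left 3 anti–PD-1 pDCs, the median was −2.93. *Irf1*, an early target of this cytokine, was at 186 and 276 CPM (0.56, 0.03 to 1.08). *Igtp*, an immunity-related GTPase, had 15 and 19 UMIs (1.32, 0.37 to 2.27), of which 42.1% of the anti–PD-1 UMIs came from 1 cell, and was at 0.07 in pDCs with at most 5 UMIs of *S100a8* and *S100a9*. *Cxcl9* and *Cxcl10*, T cell attractants that this cytokine induces in many cells, had 2 and 3 UMIs in PBS and 1 and 6 UMIs in anti–PD-1 pDCs. The median of the list was 1.30 over all other kept cells, 1.55 in neutrophils, 0.54 in cDC1, 0.65 in cDC2, 0.47 in T cells and 0.35 in B cells.

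Few antigen presentation genes were past 2-fold. For MHC class I, 0 of 17 measured genes were past 2-fold, and 11 lay above 0 and 6 below. Their intervals lay above 0 for 7 and below for 1, without a background over all measured genes. The median was 0.30, or −0.25 with more exclusion genes and 1.10 in the Y-positive, *Xist*-negative pDCs. *B2m* was at 4865 and 5576 CPM (0.20, 0.09 to 0.31), *H2-K1* at 2603 and 3384 CPM (0.38, 0.23 to 0.52), and *H2-T23*, the mouse Qa-1 that engages NKG2A, at 737 and 1256 CPM (0.76, 0.51 to 1.02). *Psmb10*, an immunoproteasome subunit, was lower, at 180 and 103 CPM (−0.78, −1.54 to −0.07). For MHC class II, 0 of 12 measured genes were at least 2-fold higher and 3 (25.0%) at least 2-fold lower, and the median was −0.41. It was 1.74 in the Y-positive, *Xist*-negative pDCs, whose 4 PBS cells do not show a direction. Of the 12 genes 10 lay below 0, and 6 intervals lay below it, again without a background for intervals. Among the chains and the invariant chain, *Cd74* was at 9466 and 9821 CPM (0.05, −0.03 to 0.13), *H2-Aa* at 3040 and 3097 CPM (0.03, −0.12 to 0.17), *H2-Eb1* at 1690.3 and 1635 CPM (−0.05, −0.25 to 0.15) and *H2-Ab1* at 2455 and 2101 CPM (−0.22, −0.40 to −0.05). The members past 2-fold act in regulation and peptide loading. *Ciita*, the transactivator of class II genes, had 25 UMIs in 17 PBS pDCs and 2 UMIs in 1 anti–PD-1 pDC (−2.11, −3.54 to −0.53), *H2-DMb1*, a peptide editor, had 83 and 19 UMIs (−1.0, −1.75 to −0.31), and *March1*, which removes class II from the surface, had 22 and 4 UMIs with an interval that spans 0 (−1.19, −2.60 to 0.13). In the Y-positive, *Xist*-negative pDCs, *Ciita* was at 1.97, *H2-DMb1* at 4.61 and *March1* at 1.30. Without the 6 PBS pDCs low in pDC genes, *Cd74* was at 0.25, *H2-Aa* at 0.30, *H2-Eb1* at 0.46, *H2-Ab1* at 0.11, *H2-DMb1* at −0.91 and *March1* at −0.95.

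**Figure D4:**
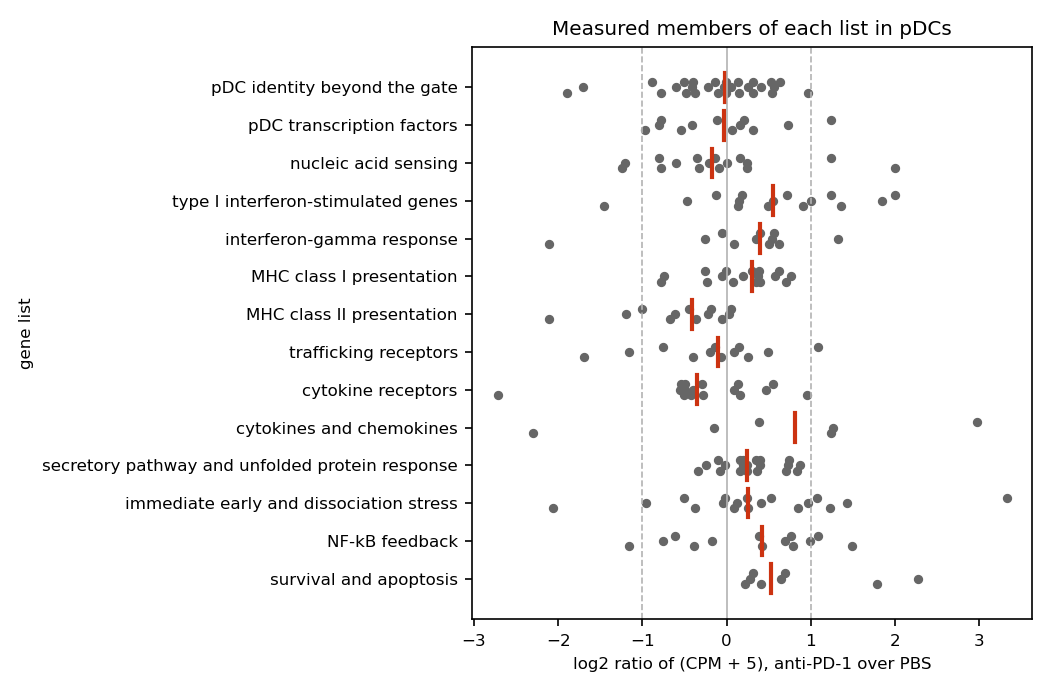
Log2 ratio of (CPM + 5), anti–PD-1 over PBS (x axis), of each measured member (grey points) of 14 gene lists (y axis) in pDCs, with the list median in red and dashed lines at 2-fold. The type I interferon-stimulated genes have a median of 0.55 and the MHC class II genes a median of −0.41, against −0.10 over all 4893 measured genes.

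Among cytokines and chemokines, the most abundant transcript was that of *Ccl4*. *Ccl4*, which encodes a chemokine that attracts T cells and monocytes, had 540 UMIs in 30 of 74 PBS pDCs, at 1373 CPM, and a lowest, median and highest cell of 0, 0 and 203 UMIs per 10000. In anti–PD-1 pDCs it had 599 UMIs in 22 of 31 cells, at 3243 CPM, and 0, 17.3 and 130 UMIs per 10000. The median PBS pDC thus had no *Ccl4* UMI and the median anti–PD-1 pDC had some, with overlapping ranges and a log2 ratio of 1.24 (1.07 to 1.41). After thinning to 1000 UMIs a *Ccl4* UMI was found in 27.0% (17.4% to 38.6%) and 61.3% (42.2% to 78.2%) of pDCs, against 12.5% and 22.4% of neutrophils. Unthinned, the *Ccl4* shares were 40.5% and 71.0% of pDCs and 18.4% and 36.8% of neutrophils. The level in pDCs was above that in cDC1 (96.1 and 791 CPM) in both libraries, and the ratio in cDC1 was larger (2.98).

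The other measured members of that list had fewer UMIs. *Ccl3*, a related chemokine gene, had 50 and 31 UMIs (0.39, −0.27 to 1.03). *Ccl5*, an attractant of T cells, had 45 UMIs in 9 and 52 UMIs in 17 pDCs (1.26, 0.68 to 1.84), of which 60% and 46.2% lay in 1 cell of each library. *Il1b* had 8 and 36 UMIs (2.98, 2.01 to 3.97), of which 44.4% of the anti–PD-1 UMIs lay in 1 cell. After estimated free RNA was subtracted, *Ccl5* was at −3.09 and *Il1b* at −1.49, whereas *Ccl4* remained at 1.38. *Cxcl16*, a transmembrane ligand of CXCR6, was lower, with 39 UMIs in 6 and 3 UMIs in 3 pDCs (−2.29, −3.71 to −0.91). Of its PBS UMIs 41.0% lay in 1 cell, and *Cxcl16* was at 0.98 without the 6 PBS pDCs low in pDC genes and at 1.97 in the Y-positive, *Xist*-negative pDCs. Without those 6 cells *Ccl3* was at 1.21, *Ccl4* at 1.05 and *Ccl5* at 2.32. In all, 3 of 6 measured members were at least 2-fold higher and 1 at least 2-fold lower, with a median of 0.81. The median was −0.85 after estimated free RNA was subtracted and −0.15 over all listed members with a UMI, with no filter on low counts.

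Of 16 measured receptors for cytokines 6 lay above 0 and 10 below, where 43.4% of all measured genes lay above 0. Their median log2 ratio was −0.35, or 0.93 in the Y-positive, *Xist*-negative pDCs. Of the 16, 0 were at least 2-fold higher and 1 (6.25%) at least 2-fold lower, against 4.43% and 9.34% of all measured genes. That member was *Il10ra*, which encodes the ligand-binding chain of the IL-10 receptor. PBS pDCs had 53 UMIs of it in 30 of 74 cells, at 135 CPM (101 to 176), and anti–PD-1 pDCs had 3 UMIs in 3 of 31 cells, at 16.2 CPM (3.35 to 47.5). The log2 ratio was −2.72 (−4.12 to −1.35). In the other gated cells *Il10ra* was at −0.21 in cDC1, 0.54 in cDC2, 0.33 in B cells, −0.02 in T cells and 0.61 in neutrophils. In pDCs *Il10ra* was below 0 under every alternative run, from −4.89 to −0.80. The alternatives largely re-use the same UMIs, so their shared sign is no independent support. They also include the 2 subsets, with 3 anti–PD-1 or 4 PBS pDCs, that do not show a direction. *Il10rb*, the second chain, was at 94.0 and 75.8 CPM, and *Flt3*, the receptor for the main dendritic cell growth factor, at 224 and 184 CPM, both with intervals that span 0. *Ifnar2*, a chain of the type I interferon receptor, was at 376 and 265 CPM (−0.50, −0.98 to −0.03).

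Trafficking receptors showed 1 of 12 measured members at least 2-fold higher and 2 (16.7%) at least 2-fold lower, with a median of −0.10, or 0.76 in the Y-positive, *Xist*-negative pDCs. *Ccr2*, which guides cells out of the bone marrow, had 87 UMIs in 33 PBS pDCs and 12 UMIs in 9 anti–PD-1 pDCs (−1.69, −2.60 to −0.87). It was also lower in cDC1 (−1.92) and neutrophils (−1.35). *Itgb7*, an integrin chain for gut homing, had 107 UMIs in 53 and 22 UMIs in 12 pDCs (−1.16, −1.85 to −0.51). *Ccr7*, the receptor for migration to lymph nodes, had 25 and 26 UMIs, but 96.0% and 76.9% of them lay in a single cell of each library, so its ratio of 1.09 rests on 1 cell of each. Without the 6 PBS pDCs low in pDC genes it was at 4.21.

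*Nr4a1* and its relatives stood among the 15 highest ratios of all measured genes. *Nr4a1*, an orphan nuclear receptor induced by activation, had 22 UMIs in 12 of 74 PBS pDCs, at 55.9 CPM (35.0 to 84.7), with a lowest, median and highest cell of 0, 0 and 5.41 UMIs per 10000. In anti–PD-1 pDCs it had 112 UMIs in 23 of 31 cells, at 606 CPM (499 to 729.6), with 0, 4.50 and 18.8 UMIs per 10000. The ratio was 3.33 (2.70 to 3.99), and no anti–PD-1 cell held more than 20.5% of the UMIs. The relatives *Nr4a2* (3 and 31 UMIs, 3.77, 2.54 to 4.84) and *Nr4a3* (5 and 26 UMIs, 3.04, 1.91 to 4.14) were also higher, and another gene of that ranking was *Crem*, a cAMP-responsive factor, with 4 UMIs in 4 and 39 UMIs in 12 pDCs (3.83, 2.69 to 4.89). *Pde4b*, which degrades cAMP, had 1 UMI in PBS and 20 UMIs in 10 anti–PD-1 pDCs (3.91, 2.41 to 4.74).

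*Nr4a1* was higher in every other gated cell type, with ratios from 2.38 in neutrophils to 3.04 in B cells. Over the 18 genes of the early response and dissociation stress list, 4 (22.2%) were at least 2-fold higher in pDCs and 1 at least 2-fold lower, with a median of 0.25, or −0.15 after estimated free RNA was subtracted and −0.65 with more exclusion genes, against 1.2 over all other kept cells. *Jund* was at 546 and 1478 CPM (1.43, 1.17 to 1.69), *Fosb* at 139.8 and 336 CPM (1.23, 0.71 to 1.76) and *Hspa1b*, whose reads may be shared with its near-identical copy *Hspa1a*, at 292 and 623 CPM (1.08, 0.70 to 1.45), whereas *Jun* was lower at 801 and 411 CPM (−0.95, −1.33 to −0.59) and *Ier3* had 33 and 3 UMIs (−2.07, −3.49 to −0.67), of which 57.6% of the PBS UMIs lay in 1 cell. Without the 6 PBS pDCs low in pDC genes *Ier3* was at −0.91 and *Hspa1b* at 0.98. After thinning to 1000 UMIs *Nr4a1* was found in 6.76% and 38.7% of pDCs and in 16.4% and 52.5% of neutrophils, and unthinned in 16.2% and 74.2% of pDCs and 25.4% and 72.3% of neutrophils.

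**Figure D5:**
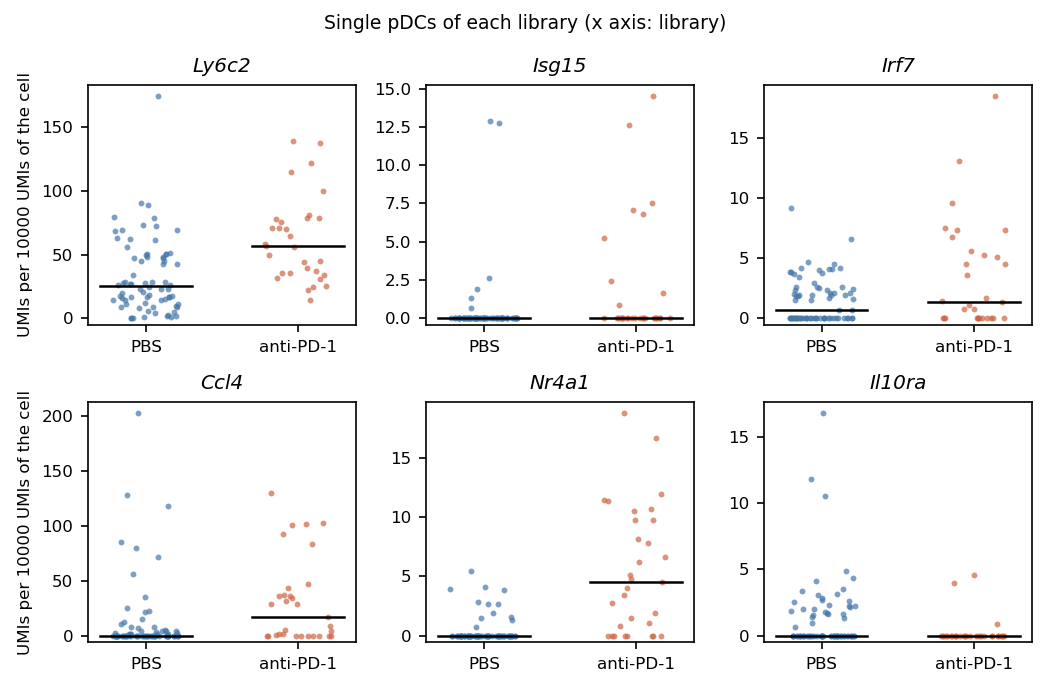
UMIs per 10000 UMIs of the cell (y axis) for 6 genes in each of the 74 PBS (blue) and 31 anti–PD-1 (orange) pDCs, with black lines at the medians. *Ly6c2*, *Ccl4* and *Nr4a1* have higher medians in the anti–PD-1 library (56.8, 17.3 and 4.50, against 25.6, 0 and 0), and *Il10ra* was found in 3 anti–PD-1 cells.

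In the NF-κB feedback list 2 of 13 measured members were at least 2-fold higher and 1 at least 2-fold lower, with a median of 0.42, or −0.28 after estimated free RNA was subtracted and −1.04 with more exclusion genes. *Rel*, an NF-κB subunit, had 32 and 44 UMIs (1.49, 0.84 to 2.15). *Tnfaip3* (A20), an inhibitor, had 30 and 31 UMIs (1.09, 0.36 to 1.81), and was at −0.02 after free RNA was subtracted. *Nfkb1*, another subunit, was lower, with 102 and 21 UMIs (−1.15, −1.87 to −0.50).

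All 8 measured genes of the survival and apoptosis list lay above 0, with a median of 0.53, and 2 (25.0%) were at least 2-fold higher. With more exclusion genes, which left 3 anti–PD-1 pDCs, the median was −1.38. *Bcl2l11*, which encodes the death inducer BIM, had 9 UMIs in 6 PBS pDCs and 24 UMIs in 9 anti–PD-1 pDCs (2.28, 1.27 to 3.29), and was at 3.64 without the 6 PBS pDCs low in pDC genes. The pro-survival gene *Mcl1* was higher too, at 254 and 401 CPM (0.65, 0.20 to 1.08). *Bcl2l11* was at 0.50 in cDC1 and 0.33 in neutrophils.

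The secretory program that marks pDCs was well expressed in both libraries. *Xbp1*, which drives it, was at 569 and 639 CPM in pDCs, against 193 and 159 CPM in cDC1. The whole list was closer, with a summed level of 7216 and 9414.5 CPM in pDCs, against 5485 and 7230 CPM in cDC1. In B cells it was at 6148 and 5055 CPM. Of 20 measured genes 15 lay above 0 and 0 were past 2-fold, and the median log2 ratio was 0.24, or −0.07 with more exclusion genes, against −0.06 over all other kept cells and 0.33 in cDC1. The chaperones *Hspa5* (BiP) at 1093 and 1835 CPM (0.75, 0.54 to 0.95), *Calr* (0.71, 0.38 to 1.04) and *Pdia6* (0.73, 0.26 to 1.18) were higher, as were *Herpud1* (0.88, 0.47 to 1.28) and *Dnajb9* (0.84, 0.23 to 1.44), which act in the removal of misfolded proteins. *Hspa5* was also higher in cDC1 (0.64) and T cells (0.44).

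The receptors and adaptors that restrain pDCs were close to level. Of 14 measured, *Cd209d* alone was past 2-fold, and the median was −0.08, or 0.33 in the Y-positive, *Xist*-negative pDCs and 0.01 after estimated free RNA was subtracted. *Tyrobp* (DAP12), the adaptor through which SIGLECH signals, was at 3996 and 3909 CPM (−0.03, −0.16 to 0.10). *Lair1*, a collagen receptor, was at 704 and 655 CPM with an interval that spans 0, and *Clec12a*, an inhibitory lectin, was higher at 404 and 639 CPM (0.65, 0.30 to 1.00).

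Among ligands that costimulate or restrain T cells 9 of 23 were measured, 2 of them at least 2-fold higher and 1 at least 2-fold lower. *Lgals9* (galectin-9) had 31 and 27 UMIs (0.85, 0.10 to 1.59). *Cd200*, an inhibitory ligand, had 14 and 18 UMIs (1.34, 0.36 to 2.30), *Tnfsf9* (4-1BB ligand) had 9 and 15 UMIs (1.63, 0.52 to 2.72), of which 73.3% of the anti–PD-1 UMIs lay in 1 cell and which was at −0.67 in the Y-positive, *Xist*-negative pDCs, and *Icosl* had 25 and 4 UMIs (−1.36, −2.76 to −0.05), or −0.86 without the 6 PBS pDCs low in pDC genes. *Lag3*, which mouse pDCs carry on their surface, was at 191 and 276 CPM with an interval that spans 0. *Cd274*, which encodes PD-L1, the ligand of the blocked receptor, had 4 and 3 UMIs, too few to compare.

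Genes shared with conventional dendritic cells were found in a part of the PBS pDCs. *Cd209a* had 81 UMIs in 27 of 74 PBS pDCs and 7 UMIs in 4 of 31 anti–PD-1 pDCs (−2.30, −3.42 to −1.29). After thinning to 1000 UMIs *Cd209a* was found in 16.2% and 3.23% of pDCs and in 0.413% and 0.213% of neutrophils, and unthinned in 36.5% and 12.9% of pDCs and 0.977% and 0.811% of neutrophils. *Axl*, a receptor kinase of transitional dendritic cells, had 23 UMIs in 6 and 5 UMIs in 3 pDCs, with an interval that spans 0. *Id2*, which opposes TCF4, had 83 UMIs in 19 and 15 UMIs in 11 pDCs (−1.33, −2.16 to −0.57). *Rbpj*, the mediator of Notch signals, had 26 and 4 UMIs (−1.42, −2.81 to −0.11), while *Irf4*, a factor of cDC2, had 15 and 17 UMIs (1.17, 0.19 to 2.13). Of 10 genes of transitional dendritic cells 6 were measured, 0 of them at least 2-fold higher and 2 at least 2-fold lower, with a median of −0.93, or 1.48 in the Y-positive, *Xist*-negative pDCs. At least 3 of the 10 were found in 16 PBS (21.6%) and 5 anti–PD-1 pDCs (16.1%), and the intervals of these shares overlapped (12.9% to 32.7% and 5.45% to 33.7%). After thinning to 1000 UMIs they were 2 of 74 (2.70%) and 0 of 31 (0% to 11.2%). In the Y-positive, *Xist*-negative pDCs, *Cd209a* was at 2.43 and *Id2* at 0.41. Without the 6 PBS pDCs low in pDC genes, *Id2* was at 0.15, *Axl* at 0.95 and the median of the transitional dendritic cell genes at −0.01.

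The targeted genes of the shRNAs were not measurable in pDCs. *Yap1* had 1 UMI in PBS and 0 UMIs in anti–PD-1 pDCs, and *Wwtr1* had 0 UMIs in both. Kinases and adaptors of the Hippo pathway upstream of them were present, such as *Stk4* (MST1) at 216 and 179 CPM and *Mob1a* at 139.8 and 103 CPM, both with intervals that span 0.

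Over all measured genes, transcripts known from other cells stood among the highest ratios. *S100a8* and *S100a9*, the most abundant neutrophil transcripts, had 85 and 56 UMIs in PBS and 403 and 262 UMIs in anti–PD-1 pDCs, with log2 ratios of 3.31 and 3.27, and 1 cell held 61.2% and 50% of them in PBS and 37.7% and 43.9% in anti–PD-1 pDCs. Of 5 neutrophil markers 3 were measured and all 3 were at least 2-fold higher, and their summed level per 10000 UMIs ran from 0 to 68.1 in PBS pDCs (median 0) and from 0 to 478 in anti–PD-1 pDCs (median 4.98). *Lrg1*, *Ccrl2*, *Csf3r* and *Cxcl2* also ranked among the 15 highest, and in pDCs with at most 5 UMIs of *S100a8* and *S100a9* (71 and 25 cells) *Lrg1* was at 0.26, *Ccrl2* at 0.82, *Csf3r* at 1.83 and *Cxcl2* at 1.17, whereas *Nr4a1* (3.33), *Crem* (3.86), *Pde4b* (4.01) and *Tent5c* (3.53) were as high as in all pDCs. *Gzma*, *Pf4* and *Chil3* were high through a single cell, which held 92.7%, 96.2% and 89.7% of the anti–PD-1 UMIs. *Tent5c*, a poly(A) polymerase that stabilizes mRNAs of secreted proteins, had 11 UMIs in 7 PBS and 52 UMIs in 14 anti–PD-1 pDCs (3.12, 2.27 to 4.01).

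At the bottom of the ranking, 4 genes had no UMI in the anti–PD-1 pDCs, and are given as bounds against 3 counts over that library's pDCs. These bounds leave out the counting error of the PBS level. The intervals of the log2 ratios allow smaller folds, with upper ends of −1.14 for *Recql5*, −1.08 for *Abcb1b* and −1.39 for *C3ar1* and *Upk3a*. *Recql5*, a DNA helicase gene, had 21 UMIs in 14 PBS pDCs and was at least 3.29-fold lower, and *Abcb1b*, an efflux transporter, had 20 UMIs in 15 and was at least 3.13-fold lower. *C3ar1* and *Upk3a* were each at least 3.91-fold lower, but 52.0% and 60% of their UMIs lay in 1 PBS cell. The next lowest were spread over many PBS cells, among them *Sh3pxd2a* (32 UMIs in 22 cells and 1 UMI, −3.05, −4.18 to −1.22), *Ccm2* (35 UMIs in 27 cells and 2 UMIs, −2.57, −3.97 to −1.01), *Dennd4b* (33 UMIs in 25 cells and 2 UMIs, −2.49, −3.90 to −0.93), *N4bp3* (23 UMIs in 20 cells and 1 UMI, −2.61, −3.76 to −0.75, but 1.30 in the Y-positive, *Xist*-negative pDCs) and *Pik3cg*, the leukocyte PI3 kinase γ (21 UMIs in 17 cells and 1 UMI, −2.49, −3.65 to −0.63).

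Markers of other cells did not share one direction. Of 7 monocyte and macrophage markers 5 were measured and 4 were at least 2-fold lower in anti–PD-1 pDCs, with *C1qa* at 313 and 135 CPM (−1.18) and *Lyz2* at 920.2 and 466 CPM (−0.98). Their summed level ran from 0 to 205 per 10000 UMIs in PBS pDCs (median 7.31) and from 0 to 59.0 in anti–PD-1 pDCs (median 8.38). The tumor transcript *Spp1* was at 1101 and 525 CPM (−1.06). Of 5 Kupffer cell markers *Cd5l* alone was measured, with 12 and 15 UMIs (1.28, 0.23 to 2.32), and the list summed to 63.5 and 162 CPM (1.29, 0.53 to 2.05). Of 5 hepatocyte markers *Ttr* alone was measured, with 18 UMIs in 11 PBS pDCs and 2 UMIs in 1 anti–PD-1 pDC (−1.68, −3.14 to −0.06). The hepatocyte list summed to 22 and 2 UMIs, with 1 and 0 UMIs of *Alb* and none of *Apoa1*. From 8 such transcripts, free RNA was estimated at 13.4% of the UMIs of PBS and 26.6% of those of anti–PD-1 pDCs. This takes all 1018 and 857 UMIs of these transcripts in pDCs as free RNA, with the profile of all barcodes of the library. Of the 857 UMIs, 403 were of *S100a8* and 262 of *S100a9*, and 1 cell held 37.7% and 43.9% of these. Values after subtraction carry these limits, and the list medians whose sign then differs stand beside the lists.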

How the data were processed

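Tumor-bearing liver of shYT mice treated with PBS or anti–PD-1 was profiled by scRNA-Seq on the Singleron GEXSCOPE platform (Kit V2), with 1 library per group. The authors made the deposited gene-by-barcode matrices of raw UMI counts with Singleron's Cell Scope pipeline and the mm10 genome. Its version, annotation and strand setting are not given in the sources used here, and the submitters' processing notes name Seurat 4.3. No cell annotation was used. The matrices held 19397 barcodes and 121713441 UMIs (PBS) and 19451 barcodes and 100807037 UMIs (anti–PD-1). Of 32589 gene identifiers, 32445 (99.6%) were in GENCODE vM21, which gave gene coordinates.

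Kept cells had 500 to 5000 genes and at most 10% mitochondrial UMIs. The 6-gene gate was applied to raw counts, and UMIs of pDCs were summed per library, scaled to CPM and compared as log2 ratios after adding 5 CPM. Genes with a mean of at least 20 CPM and 20 UMIs over both libraries were measured, and 2-fold was the threshold. cDC1, cDC2, B cells, T cells and neutrophils were gated by UMIs of at least 3 of 5 markers each, with pDCs left out. The cDC2 gate also required a *Cd209a* UMI. Cells with a UMI of *Cd3e*, *Cd79a* or *Clec4f* were left out of cDC1, cDC2 and neutrophils. B cells had no UMI of *Cd3e* or *Clec4f*, and T cells none of *Cd79a* or *Clec4f*. CPM have exact Poisson, shares Clopper-Pearson, and ratios combined 95% intervals, and all intervals and floors (3 counts) cover counting error only. No test was made. Counts of cells with a UMI are unthinned unless stated, and shares compared with neutrophils are given unthinned and after thinning to 1000 UMIs. Free RNA was estimated from 8 transcripts of other cells, against their level over all barcodes of the library.

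Named genes were the gate and exclusion genes; members of each list with the highest level, the extreme ratios or a ratio past 2-fold; the 15 highest and 15 lowest ratios with an interval beyond 0, sex-linked genes apart; and the 20 genes highest in pDCs over other cells and by level. Other genes (such as *Igkc*, *Cd274*, *Ifnar2* and *Mob1a*) were named after their values were seen, and a few genes that the rule names are not reported here. The members and lists were chosen with earlier results of these data known.

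Scrublet (in scanpy 1.11.5) marked 0 cells at its automatic threshold. A threshold of 0.25, set after the scores were seen, marked 320 (2.06%) and 355 (2.17%) cells and 1 and 0 pDCs, which were kept except in an alternative. Alternatives changed the gate, exclusion genes, cell filters, denominator, pseudocount, scaling and low-count filter, subtracted free RNA, or averaged CPM over cells. Leaving out marked doublets, leaving out each gene's highest cell, limiting *S100a8* and *S100a9* UMIs, leaving out pDCs with under 100 UMIs per 10000 of pDC genes beyond the gate and not excluding *Clec4f* were chosen after seeing the data. Python 3.11.15, numpy 2.4.6, scipy 1.17.1, pandas 2.3.3 and matplotlib 3.10.9 were used, and the ratio calculation was tested on simulated data.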

Additional observations from a re-analysis of the deposited data

How the results depend on the processing

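No paired analysis was possible because the labels give no replicate numbers and each group has 1 library, and for the same reason no replicate could be left out. The smaller library, with 31 pDCs, limits every ratio. Of 365 shares and medians under the alternatives, 339 kept their sign. The difference in pDC share was negative in all 15 of its alternatives and moved by less than its counting interval in 13. As a share of gated dendritic cells, which is not among them, the difference was 10.1 points. The secretory median ran from −0.07 (more exclusion genes) to 0.72 and the transcription factor median from −0.41 to 0.11. Excluding further genes of other cells left 15 and 3 pDCs. The share difference was then −0.0782 points, 979 genes were at least 2-fold higher and 2737 lower, and list medians were −1.03 (pDC identity), −1.86 (sensing), −0.84 (type I interferon-stimulated), −2.93 (interferon-γ), −0.25 (MHC class I), 1.23 (cytokines), −0.98 (trafficking), −0.65 (early response), −1.04 (NF-κB) and −1.38 (survival). *Id2* (1.51), *Irf4* (−3.45), *Isg15* (−2.11), *Igtp* (−2.93), *H2-DMb1* (0.84), *Il1b* (−2.93), *Fosb* (−4.14), *Hspa1b* (−5.92), *Lrg1* (−2.11), *Ccrl2* (−2.11), *Cxcl2* (−2.11) and *Ppm1e* (0.0126) changed sign. Fewer cells are part of that alternative's construction. With 3 anti–PD-1 pDCs, these values and changes of sign rest on too few UMIs to show a direction.

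Y-positive, *Xist*-negative cells (4 and 20 pDCs) gave a share difference of −0.0157 points, 1751 genes higher and 922 lower, and medians of 1.08 (sensing), 2.43 (type I interferon-stimulated), 2.31 (interferon-γ), 1.74 (MHC class II), 1.10 (MHC class I), 2.11 (cytokines), 0.76 (trafficking), 0.93 (cytokine receptors), 2.18 (NF-κB), 2.16 (survival), 0.33 (regulatory receptors), 2.28 (costimulation) and 1.48 (transitional). *Grm8* (3.29), *Id2* (0.41), *Cnpy3* (3.29), *Usp18* (1.30), *Ciita* (1.97), *H2-DMb1* (4.61), *March1* (1.30), *Tnfsf9* (−0.67), *Cxcl16* (1.97), *Cd209a* (2.43), *Igfbpl1* (1.30) and *N4bp3* (1.30) had the other sign. With 4 PBS pDCs, the ratios and medians of this subset do not show a direction.

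Genes at least 2-fold lower numbered 253 with no exclusion genes, 256 with a pseudocount of 20 CPM, 799 after subtraction of free RNA and 783 without each gene's highest cell. The last choice left library totals unchanged and tends to lower ratios by construction. With no filter on low counts, 1379 genes were higher and 2571 lower, and the cytokine median was −0.15. Subtraction of free RNA gave medians of −0.85 (cytokines) and −0.15 (early response), and *Ccl5* (−3.09), *Il1b* (−1.49) and *Tnfaip3* (−0.0238) changed sign. *Tnfsf9* was at −0.10 in pDCs with at most 5 UMIs of *S100a8* and *S100a9*, and *Ccr7* at −1.14 with at least 3 *Siglech* UMIs. Leaving out the 6 PBS pDCs low in pDC genes, chosen after seeing the data, gave *Id2* at 0.15 and *Cxcl16* at 0.98. The difference in the share of pDCs with a *Nr4a1* UMI was 58.0 points with no thinning and 52.5 points at 2000 UMIs. Scaling by the median ratio of 574 genes shifted log2 ratios by 0.15 and gave 166 genes higher and 624 lower. The pDC identity median, near 0, was 0.25 in Y-positive, *Xist*-negative cells, 0.17 after subtraction of free RNA and 0.000244 with up to 20% mitochondrial UMIs. The NF-κB median was −0.28 after subtraction of free RNA, the costimulation median −0.13 with more exclusion genes, and the *Ighm* share difference −5.10 points with no thinning and −15.2 points at 2000 UMIs, against 3.40 at 1000. Beyond what is stated above, the cause of these changes was not tested.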
